A study of Mus musculus with 2 samples.

Results

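The Hox cluster genes are the entries of the gene activity table whose symbol is Hox followed by a cluster letter and a paralogue number, with their opposite-strand transcripts. They comprised 45 of the 24165 RefSeq entries of the table and 41 of its 20128 gene symbols. Of these, 42 entries belonged to 38 Hox genes and 3 were transcripts that run opposite to a Hox gene, namely Hoxa11os, Hoxb5os and Hoxd3os1. RefSeq names 39 Hox genes in the mouse, and Hoxc12, 1784 bp long, was the one without a matching entry. The methods restrict the table to genes of at least 2 kb.

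Hox genes encode homeodomain transcription factors that specify position along the body axis and along the limb. In mammals they lie in 4 clusters, HoxA to HoxD, and genes of equal number in different clusters are paralogues that descend from the same ancestral gene. Low numbers are transcribed early and towards the head, high numbers later and towards the tail, and cells cultured from an adult tissue often keep a Hox pattern that reflects where in the body they came from. Hox proteins bind DNA together with TALE homeodomain partners of the Pbx, Meis and Pknox families, and Polycomb and trithorax complexes hold their genes silent or active.

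Activity was measured in C2C12, an established line of mouse myoblasts that came from adult leg muscle, grown without any particular treatment to a confluency of 80%. In global run-on sequencing (GRO-seq), polymerases already engaged on DNA elongate in isolated nuclei and label the RNA they make with bromouridine, so a read reports ongoing transcription and not stored mRNA. The 2 replicate libraries, each from nuclei of 4 plates of a single line, were pooled by the authors into 1 value per RefSeq entry. This value, gene activity in RPKmM, is the density of sense-strand reads between 1 kb past the transcription start site (TSS) and the transcript end, normalised for mappable length and for sequencing depth. Levels of different genes can therefore be compared per length. An entry that did not stand significantly above the density of gene deserts, by the authors' Poisson statistics, carries the word Inactive and no number. No value per replicate was analysed here and depth cannot be read from the table, so no standard deviation, interval or test accompanies any value below, and whether a difference exceeds the spread between replicates is unknown. An inactive call gives no upper limit.

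The labelled cell type was checked against marker genes. All 5 myoblast markers were active, from 2.39 RPKmM for Myod1, the myogenic master factor, and 5.03 for Myf5 to 146.13 for Vim, which encodes vimentin. Of the 8 markers of adipocytes, blood, neurons and epithelium in the table, 7 were inactive, and Cdh1 was called active at 0.02 RPKmM. Of all gene symbols 68.7% were active, so the active calls of the myoblast markers alone do not identify the cell type.

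Of the 45 Hox entries, 26 were active and 19 inactive. The active share was 57.8%, against a background of 70.2% over all entries of the table. Hox entries that were active showed a median activity of 1.1 RPKmM (quartiles 0.19 and 3.32), while the median of all active entries was 0.87 RPKmM (quartiles 0.22 and 1.99). Activity reached 1 RPKmM in 13 Hox entries, or 28.9%, beside 32.3% of all entries. Only Hoxc8 reached 10 RPKmM, a level found in 2.03% of all entries. The 4 clusters differed from each other in their share of active entries and in level. HoxA and HoxC were active at every entry, HoxB at 5 of 12, and HoxD at none of 12.

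**Figure D1:**
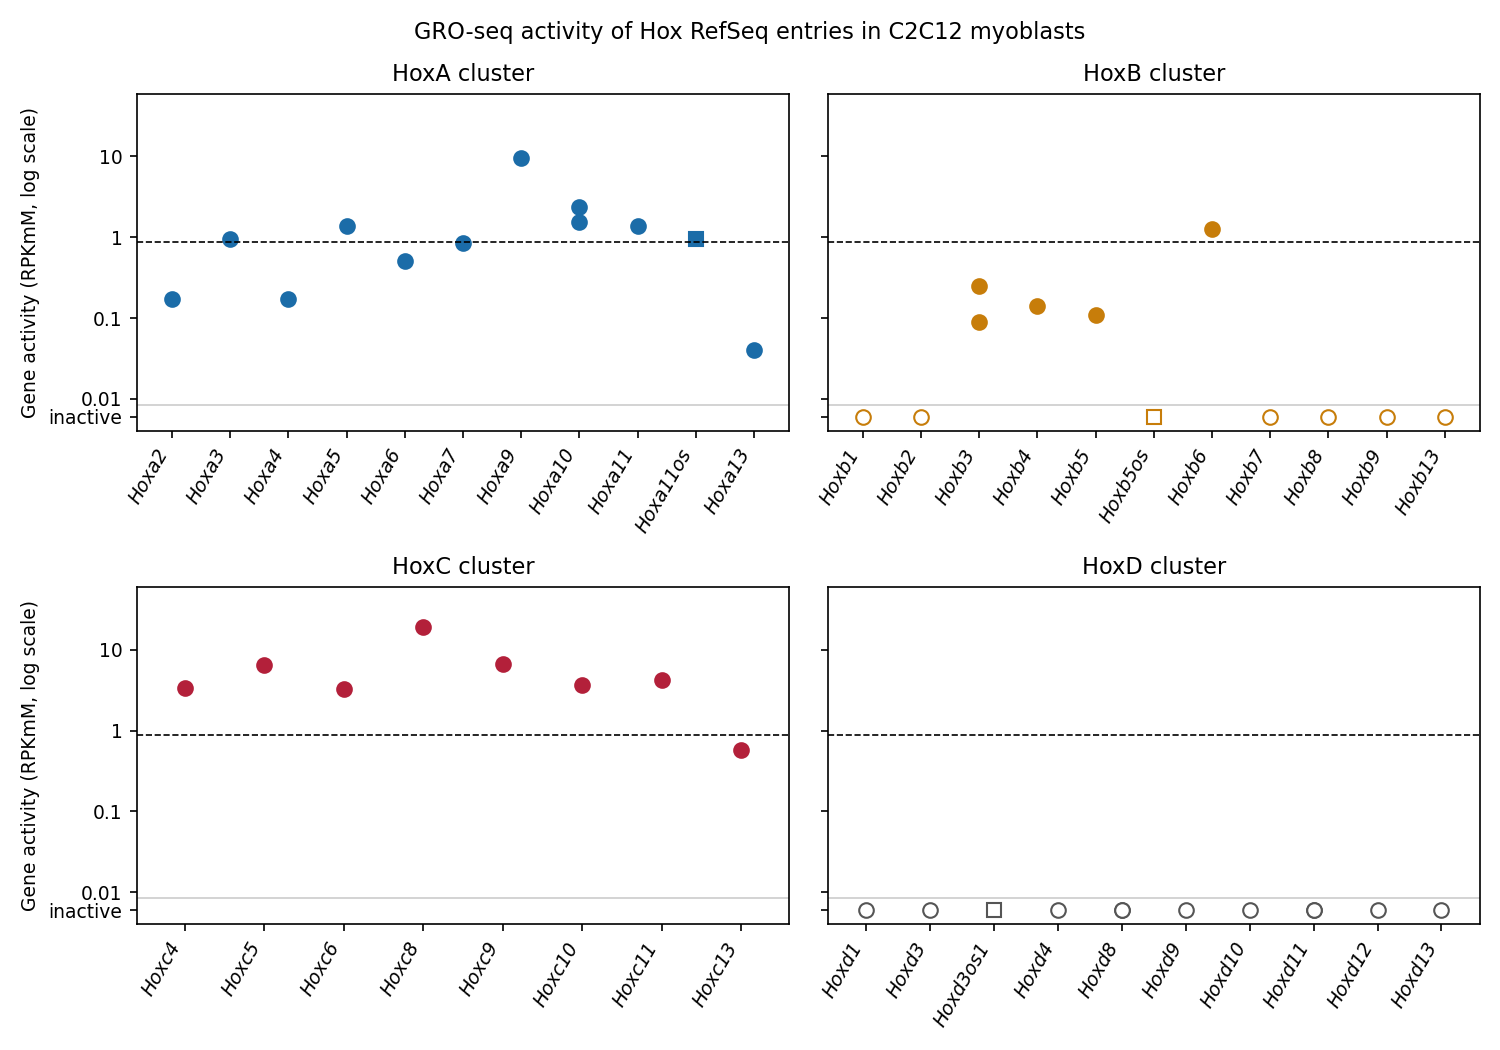
Gene activity of the Hox RefSeq entries named in the text, in RPKmM on a log scale, with genes of a cluster ordered by paralogue number on the horizontal axis; circles are Hox genes, squares are opposite-strand transcripts, open marks below the grey line are entries called inactive, which have no value, and the dashed line is the median of all active entries, 0.87. All HoxC genes but Hoxc13 lie above that line, Hoxb6 is the only HoxB entry above it, and HoxD has open marks only.

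The HoxC cluster spanned chr15:102751534-102867274 of mm9 on the plus strand and had the highest median of the clusters. Its 8 entries had a median of 3.955 RPKmM. Hoxc8, a gene of the lower neck and thorax, was the most active Hox entry at 19.07 RPKmM, which was 21.9 times the median of all active entries and higher than 98.7% of them. It ranked 214th from the top of the table's active entries. Its neighbours on either side were lower, with Hoxc6 at 3.26 RPKmM, 5.85-fold below Hoxc8, and Hoxc9 at 6.63 RPKmM, 2.88-fold below it.

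The other HoxC genes formed a narrower band. Hoxc5 had an activity of 6.52 RPKmM, close to that of Hoxc9, which patterns thoracic motor neurons. Hoxc11 was at 4.22 RPKmM and Hoxc10, a gene of the lumbar level and the hindlimb, at 3.69 RPKmM, a 1.14-fold difference. Hoxc4 was at 3.34 RPKmM, near Hoxc6. Each of these 6 genes from Hoxc4 to Hoxc11, Hoxc8 aside, thus lay between 3.26 and 6.63 RPKmM. Hoxc13, which is needed for hair and nails, stood apart at the posterior end with 0.58 RPKmM, 7.28-fold below Hoxc11 and 32.9-fold below Hoxc8. It was the only HoxC gene under the median of all active entries.

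HoxA lay on the minus strand of chromosome 6, and from Hoxa2 to Hoxa13 it spanned chr6:52112350-52210874. All 13 of its entries were active, with a median of 0.95 RPKmM, and as a ratio of highest to lowest their values ranged more widely than those of HoxC, 239-fold against 32.9-fold. Hoxa9, a gene of thoracic to lumbar identity and of blood progenitors, was the highest at 9.55 RPKmM. This was 11.0 times the median of all active entries, above 96.9% of them, and the second highest Hox activity, 2.00-fold below Hoxc8. Hoxa9 was 11.1-fold above its neighbour Hoxa7, which had 0.86 RPKmM. On its other side, the 2 entries of Hoxa10, a gene of the uterus and the lumbar region, were at 2.39 RPKmM (NM_008263) and 1.54 RPKmM (NM_001122950). The difference between these transcripts of the same gene was 1.55-fold and both were below Hoxa9.

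Further towards the posterior end, values were lower with each gene. Hoxa11, which patterns the forearm and the lower leg together with its paralogues, had 1.38 RPKmM. Hoxa13, a gene of the digits and the urogenital tract, had 0.04 RPKmM, the lowest activity among active Hox entries. It was 34.5-fold below Hoxa11 and 239-fold below Hoxa9, although the 3 genes lie in the same cluster.

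Towards the anterior end of HoxA the values alternated. Hoxa5, which is needed for lung development, had 1.38 RPKmM and Hoxa6 0.51 RPKmM. Hoxa4 had 0.17 RPKmM, 8.12-fold below Hoxa5. Hoxa3, a gene of the thymus and the pharyngeal arches, was listed at 0.95 RPKmM. Its annotated span of 49.981 kb contains the starts of Hoxa2, Hoxa4, Hoxa5 and Hoxa6 on the same strand, so reads of these genes can count for Hoxa3 and the reverse. The current RefSeq span of Hoxa3 contains the starts of Hoxa4, Hoxa5 and Hoxa6 but not that of Hoxa2. How much they contributed was not tested. Hoxa2, a gene of the hindbrain and the second pharyngeal arch, had 0.17 RPKmM as well.

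HoxB lay at chr11:96055630-96229570 on the plus strand and was divided by position. The 5 active entries belonged to the 4 adjacent genes Hoxb3 to Hoxb6, while Hoxb1 and Hoxb2 on the anterior side and Hoxb7, Hoxb8, Hoxb9 and Hoxb13 on the posterior side were inactive. Hoxb6 was the most active at 1.25 RPKmM, and the only HoxB entry above the median of all active entries. Hoxb5, its neighbour, had 0.11 RPKmM, 11.4-fold lower. Hoxb4, a gene known for expanding blood stem cells, had 0.14 RPKmM. The 2 entries of Hoxb3 had 0.25 RPKmM (NM_001079869) and 0.09 RPKmM (NM_010458), a 2.78-fold difference within a gene. In the current RefSeq annotation, unlike the mm9 annotation, the span of Hoxb3 contains the start of Hoxb4, so a Hoxb3 entry may share reads with Hoxb4. How much was shared was not tested. The HoxB median over active entries was 0.14 RPKmM, above 21.0% of all active entries. Hoxb8 was inactive although its annotated span contains the start of Hoxb7, which was inactive as well.

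HoxD lay at chr2:74506367-74603200 on the plus strand and had no active entry. This held for the anterior genes Hoxd1, Hoxd3 and Hoxd4, for both entries of Hoxd8, for Hoxd9 and Hoxd10, for both entries of Hoxd11, and for Hoxd12 and Hoxd13. Hoxd9 to Hoxd13 are the genes that pattern the limb from the upper arm or thigh to the digits. By the mm9 annotation the spans of the HoxD genes ran from 2.16 kb for Hoxd1 to 36.3 kb for Hoxd3, of which the initial 1 kb is not counted. The part of gene length in the calls was not tested.

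Comparison of paralogues showed the same order of clusters at most positions. HoxC genes had the highest listed activity in 7 of the 8 paralogue groups that had a HoxC entry. The exception was group 9, in which Hoxa9 exceeded Hoxc9 by 1.44-fold and Hoxb9 and Hoxd9 were inactive. HoxC was higher than HoxA in 6 of 7 groups with both, by 1.54-fold in group 10 to 19.6-fold in group 4. Of the 6 groups with HoxB and HoxC, HoxC was higher in the 3 in which both were active, and in the other 3 the HoxB gene was inactive and has no value to compare.

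Group 4 showed the widest spread among paralogues of the anterior region. Hoxc4 had 3.34 RPKmM, Hoxa4 0.17 RPKmM and Hoxb4 0.14 RPKmM, while Hoxd4 was inactive. In group 13, the most posterior, Hoxc13 was 14.5-fold above Hoxa13, and Hoxb13, which marks the prostate and the tail bud, and Hoxd13 were inactive. Groups 5 and 6 were the 2 groups with every member active. They have no HoxD gene, and their order differed below HoxC: Hoxa5 exceeded Hoxb5, whereas Hoxb6, at 1.25 RPKmM, exceeded Hoxa6, at 0.51 RPKmM.

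In groups 2, 3 and 7, which have no HoxC entry, the HoxA gene was the most active. Hoxa3 exceeded the higher Hoxb3 entry by 3.80-fold, subject to the overlap of Hoxa3 with its neighbours. Hoxa2 and Hoxa7 were the only active members of groups 2 and 7, and group 12 consisted of Hoxd12 alone, which was inactive.

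**Figure D2:**
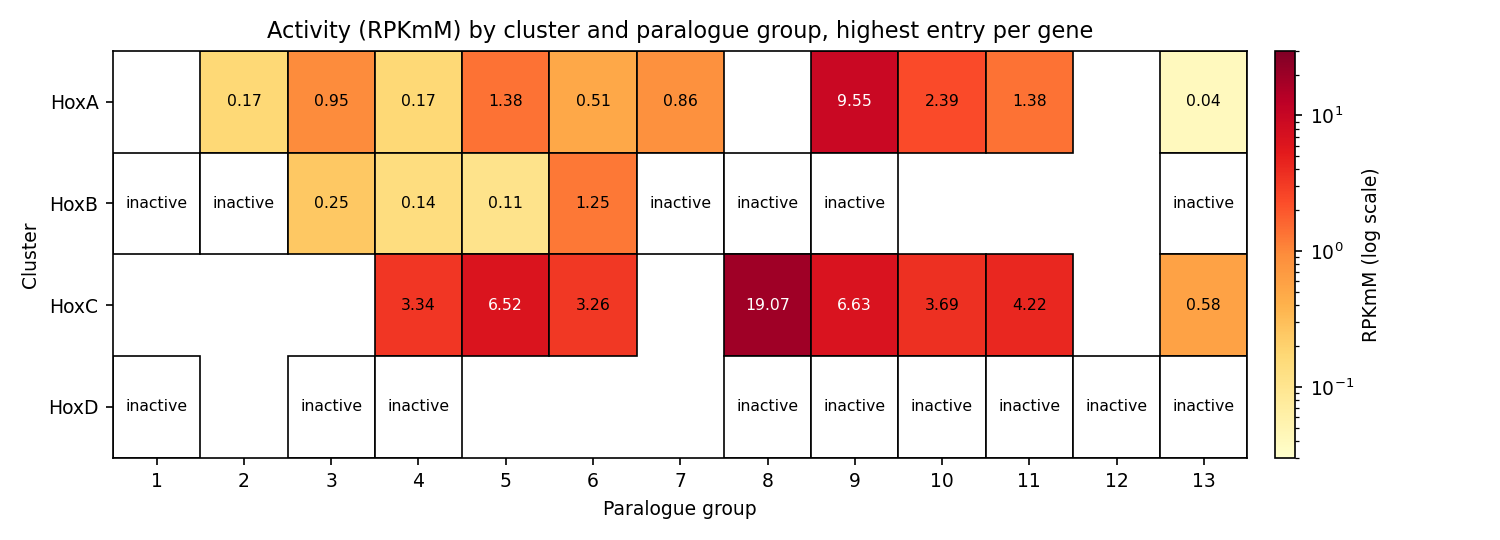
Gene activity in RPKmM by paralogue group (columns, 1 to 13) and cluster (rows), with the highest entry shown where a gene has several; colour follows a log scale, white boxes marked inactive have no value, and positions without a box have no entry or are not shown. Of the columns with a HoxC entry, the HoxC box is darkest in all but column 9, where Hoxa9 at 9.55 exceeds Hoxc9 at 6.63, and the HoxD row is white throughout.

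Grouped by position along the axis, the share of active entries lay between 55.6% and 61.5%, against 70.2% of all entries. The median level of those that were active was higher at higher paralogue numbers. Anterior entries, groups 1 to 4, were active in 8 of 14 cases with a median of 0.17 RPKmM. Central entries, groups 5 to 8, were active in 8 of 13 cases with a median of 1.315 RPKmM. Posterior entries, groups 9 to 13, were active in 10 of 18 cases with a median of 1.965 RPKmM. With inactive entries counted at 0 the order of the last pair was reversed, with 0.51 RPKmM for central and 0.31 RPKmM for posterior entries. Position and cluster are mixed in these pooled medians, since Hoxc4 is the only anterior entry of HoxC, the cluster with the highest median. Within HoxA the medians of its Hox genes took the same order, 0.17, 0.86 and 1.54 RPKmM, but within HoxC they did not, with 3.34 RPKmM for Hoxc4, 6.52 for the central genes and 3.955 for the posterior genes. In HoxB the medians of active genes were 0.14 RPKmM for the anterior and 0.68 RPKmM for the central entries, and both posterior entries, Hoxb9 and Hoxb13, were inactive. The genes at the extreme posterior end went against the trend: Hoxa13 and Hoxc13 were the least active of their clusters.

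To set sequence beside activity, promoter windows from 250 bases before to 50 bases after the start were taken from the RefSeq promoter table (GRCm38.p6), which held 26 windows for 24 of the 41 Hox symbols. Each window matched its own chromosome of mm9 exactly at 1 place on its annotated strand, and the coordinates here are those of mm9. Other chromosomes and the opposite strand were not searched. The start in a window is that of a RefSeq transcript and need not be the outermost start of the mm9 gene span used above: it lies 15.459 kb inside that span for Hoxc4, 3.72 kb for Hoxa9 and 1.58 kb for Hoxb4. The windows of group 4 are shown because its 3 members with a window cover a moderately active, a weakly active and an inactive gene, and those of group 9 because they pair the most active HoxA gene with an inactive HoxD paralogue. Capitals mark CCAAT boxes (CCAAT or ATTGG), TATA boxes (TATAAA or TTTATA) and GC boxes (GGGCGG or CCGCCC), each searched on both strands.
Hoxc4 promoter, chr15:102864576-102864875, plus strand: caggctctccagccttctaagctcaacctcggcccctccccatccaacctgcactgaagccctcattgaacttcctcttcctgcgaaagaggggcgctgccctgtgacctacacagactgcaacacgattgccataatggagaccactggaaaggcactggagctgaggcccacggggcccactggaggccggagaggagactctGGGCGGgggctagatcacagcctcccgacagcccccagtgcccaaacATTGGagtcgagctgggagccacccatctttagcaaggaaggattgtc
Hoxb4 promoter, chr11:96179331-96179630, plus strand: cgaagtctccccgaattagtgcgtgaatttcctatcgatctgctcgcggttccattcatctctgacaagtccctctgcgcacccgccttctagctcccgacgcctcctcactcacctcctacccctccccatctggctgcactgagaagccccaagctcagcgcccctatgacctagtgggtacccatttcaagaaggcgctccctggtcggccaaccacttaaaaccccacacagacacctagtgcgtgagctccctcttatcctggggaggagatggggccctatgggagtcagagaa
Hoxd4 promoter, chr2:74559785-74560084, plus strand: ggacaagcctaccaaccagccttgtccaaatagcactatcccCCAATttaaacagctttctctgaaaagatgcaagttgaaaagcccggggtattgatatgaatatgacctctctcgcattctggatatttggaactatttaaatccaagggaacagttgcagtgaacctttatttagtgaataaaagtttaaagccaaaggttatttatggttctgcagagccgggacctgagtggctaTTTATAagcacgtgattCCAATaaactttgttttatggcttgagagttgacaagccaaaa
Hoxa9 promoter, chr6:52177320-52177619, minus strand: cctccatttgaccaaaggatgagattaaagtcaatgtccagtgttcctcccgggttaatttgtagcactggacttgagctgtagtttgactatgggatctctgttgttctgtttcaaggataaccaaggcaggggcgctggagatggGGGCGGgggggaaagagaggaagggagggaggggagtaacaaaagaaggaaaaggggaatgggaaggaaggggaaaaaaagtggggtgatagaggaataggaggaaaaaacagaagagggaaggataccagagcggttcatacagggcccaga
Hoxd9 promoter, chr2:74535570-74535869, plus strand: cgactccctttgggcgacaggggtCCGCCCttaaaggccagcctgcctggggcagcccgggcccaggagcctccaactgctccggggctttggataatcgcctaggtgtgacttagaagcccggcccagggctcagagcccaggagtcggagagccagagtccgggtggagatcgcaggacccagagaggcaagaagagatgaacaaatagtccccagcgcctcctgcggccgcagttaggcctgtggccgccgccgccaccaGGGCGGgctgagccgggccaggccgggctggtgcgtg

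The inactive Hoxd4 held a TATA box match 10 bases before the start, a CCAAT box 208 bases before it and another 7 bases after it. Hoxc4, the most active paralogue, held a GC box 45 bases before the start and a CCAAT box 2 bases after it, and Hoxb4 held none of these letters in its window. Hoxa9 held a GC box 103 bases before the start, and inactive Hoxd9 held GC boxes 226 bases before and 13 bases after it. These are matches of letters in a window and not sites shown to be bound.

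Base composition separated the pairs in no single direction. G and C made up 60.3% of the Hoxc4 window, 58% of that of Hoxb4 and 39.7% of that of Hoxd4. In group 9 the inactive gene was the richer one, with 68.3% in Hoxd9 and 49.7% in Hoxa9. Active and inactive Hox windows had medians of 58% and 55%, and all 32851 windows of the table had a median of 52.7%. The ratio of observed to expected CpG had a median of 0.657 in the 13 active and 0.574 in the 13 inactive Hox windows, both above the 0.384 of all windows. The ranges of active windows, 0.280 to 1.11, and inactive windows, 0.229 to 0.970, overlapped over most of their length. Only 1 HoxC gene had a window, so the most active cluster is barely represented. All active windows but those of Hoxb4 and Hoxc4 were HoxA. All inactive windows but those of Hoxb1 and Hoxb8 were HoxD. Differences in bases or motifs between active and inactive windows therefore cannot be told apart from differences between clusters.

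**Figure D3:**
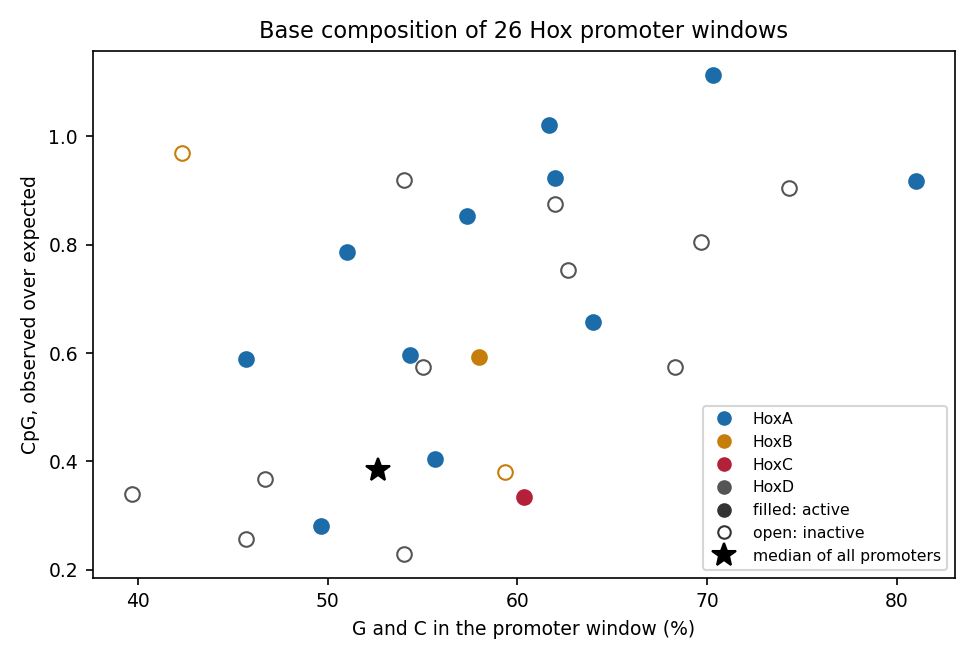
G and C content in percent (horizontal) against the observed over expected ratio of CpG (vertical) for the 26 Hox promoter windows, coloured by cluster, filled where the gene was active and open where it was inactive, with a star at the medians of all windows. Filled and open marks are interspersed, and most of both lie above the star's CpG ratio of 0.384. Filled marks are mostly HoxA and open marks mostly HoxD.

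CCAAT boxes were found in 15 of 26 Hox windows, 6 of active and 9 of inactive genes, and in 37.4% of all windows. TATA boxes occurred in 5 Hox windows, those of Hoxa10, Hoxa11os, Hoxb8, Hoxd4 and Hoxd13, and in 13.6% of all windows. GC boxes occurred in 10 Hox windows, 5 active and 5 inactive, and in 35.7% of all. E-boxes (CANNTG), the letters that MyoD and other bHLH factors bind, were present in 19 Hox windows and in 72.3% of all. The letters TGATNNAT or ATNNATCA, to which Pbx and Hox proteins can bind jointly, were present in 4 Hox windows, those of Hoxa2, Hoxb1, Hoxb8 and Hoxd11, and in 8.85% of all.

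The clusters also hold microRNA genes, which have no entry of their own in the table. Their mature sequences are shown because the host or neighbouring Hox genes ranged from inactive to the second highest Hox activity, that of Hoxa9, and because the same seeds recur in several clusters. Capitals mark the seed, bases 2 to 8, which pairs with target mRNAs. Sequences are from RefSeq.
miR-10a-5p: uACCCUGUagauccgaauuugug
miR-10b-5p: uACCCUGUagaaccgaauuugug
miR-196a-5p: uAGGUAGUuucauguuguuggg
miR-196b-5p: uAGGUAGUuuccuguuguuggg
miR-615-3p: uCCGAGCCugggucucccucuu

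miR-10a and miR-10b share the seed ACCCUGU. By RefSeq gene order, Mir10a lies between Hoxb5 and Hoxb4 and within the long RefSeq span of Hoxb3, whose entries were at 0.25 and 0.09 RPKmM, and Mir10b lies within Hoxd3 and Hoxd4, both inactive. miR-196a and miR-196b share the seed AGGUAGU, and the miR-196 family is known for cutting Hoxb8 mRNA. Mir196b lies between Hoxa9 and Hoxa10, at 9.55 and up to 2.39 RPKmM. Mir196a-2 lies between Hoxc10 and Hoxc9, at 3.69 and 6.63 RPKmM, and Mir196a-1, which yields the same mature miR-196a, lies between the inactive Hoxb13 and Hoxb9. Mir615, whose product has the seed CCGAGCC, lies within Hoxc5, at 6.52 RPKmM. Transcription of the microRNA genes was not measured.

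Of the 3 opposite-strand transcripts, Hoxa11os was active at 0.95 RPKmM. It lies at chr6:52194392-52199798 on the plus strand and overlaps Hoxa11, a gene to which its pattern is complementary in the developing limb. Hoxa11 had 1.45-fold more activity than Hoxa11os. Activity is counted on the sense strand of each entry, so the 2 values come from different reads. Hoxb5os was inactive opposite the weakly active Hoxb5, and Hoxd3os1 was inactive like the HoxD genes around it.

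Of the other noncoding transcripts of the clusters, Hotair was the most active. Hotair, a noncoding RNA transcribed against the direction of HoxC from between Hoxc12 and Hoxc11, had 0.97 RPKmM, below every HoxC gene but Hoxc13. In HoxA, Hoxaas2 had 0.55 RPKmM and Hotairm1 had 0.5 RPKmM, while Hoxaas3 was listed at 0.02 RPKmM. Hottip, which lies beyond Hoxa13, was inactive, as was Gm53 in HoxB. With the 3 opposite-strand transcripts, 5 of the 9 noncoding transcripts in the table were active, against 70.2% of all entries.

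The neighbours of each cluster were examined next, as the 3 nearest genes of the table on either side whose symbols match the mm9 annotation. The inactivity of HoxD was not shared by all of its neighbours. Evx2, a homeobox gene 8.45 kb beyond Hoxd13, was inactive, while Lnp behind it was at 2.03 RPKmM. Further out, 4930441J16Rik, 361 kb from Hoxd13, was inactive. On the other side, Mtx2, 60.7 kb from Hoxd1, was at 1.14 RPKmM. Hnrnpa3, at 23.77 RPKmM, lay as far as 894 kb from Hoxd1. Of the 6 HoxD neighbours, 4 were active, a share near the 68.7% of all gene symbols. Around HoxA 5 of 6 were active, and the inactive gene was Evx1, the homeobox gene beside Hoxa13, the least active HoxA gene.

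HoxB had the least active surroundings, with 3 of 6 neighbours active and none above the 0.77 RPKmM of Snx11. Skap1 and Gm11529, the nearest genes on the side of the inactive Hoxb1, were inactive too. All 6 neighbours of HoxC were active. Beyond Hoxc4 they comprised D930007P13Rik at 0.1 RPKmM, Smug1, a DNA repair glycosylase, at 7.51 RPKmM, and Cbx5, which encodes heterochromatin protein 1 alpha, at 16.48 RPKmM. Beyond Hoxc13, Calcoco1, Atp5g2 and Atf7 were between 1.34 and 2.09 RPKmM, so Hoxc13, at 0.58 RPKmM, was lower than the genes on either side of it.

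**Figure D4:**
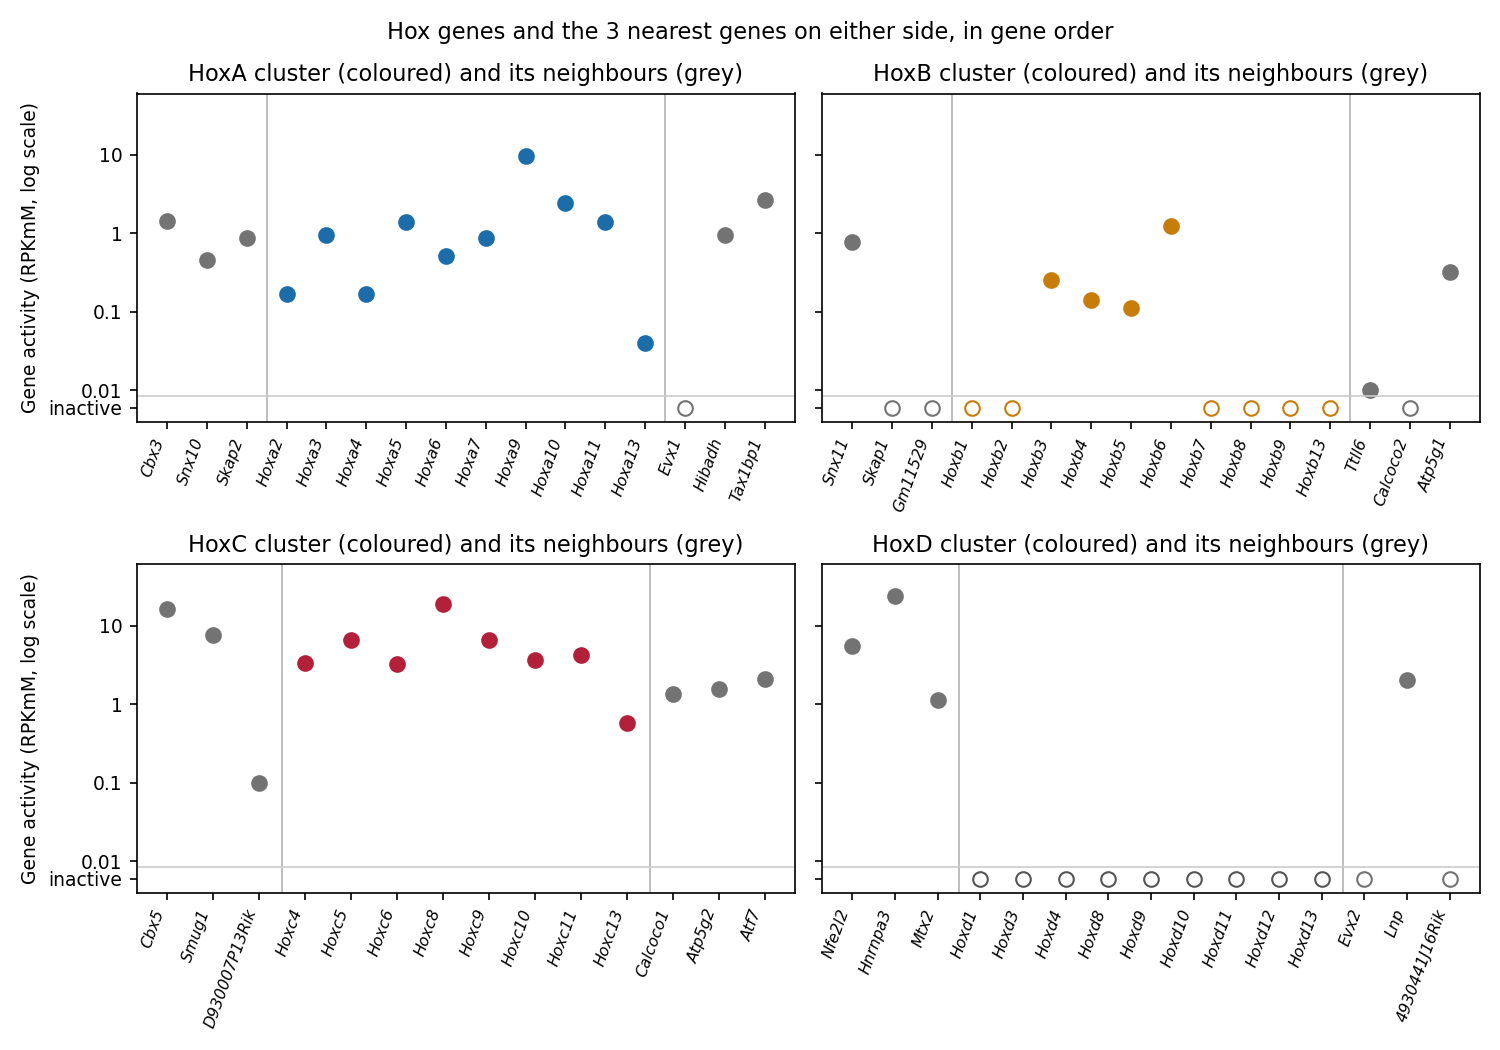
Gene activity in RPKmM on a log scale for the Hox genes of each cluster named in the text (coloured, highest entry per gene) and the 3 nearest genes on either side (grey), in gene order from beyond the anterior end to beyond the posterior end; open marks below the horizontal line are inactive and have no value, and spacing is by order and not by distance. Vertical lines mark the cluster ends. Grey filled marks flank HoxD on both sides, and Evx1 and Evx2 are open beside Hoxa13 and Hoxd13.

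The TALE homeodomain partners of Hox proteins were all active, 9 of 9, with a median of 1.22 RPKmM over genes, each at its highest entry. Counted the same way, 68.7% of all gene symbols were active, with a median of 0.87 RPKmM. Over the 11 TALE entries the median was 1.43 RPKmM. Meis2 had the highest activity at 6.16 RPKmM, and Pbx2 was at 3.47 RPKmM. Both lay within the band of the HoxC genes. Meis1 was at 1.43 RPKmM, while Pbx4 was at 0.11 RPKmM and Pknox2 at 0.28 RPKmM. Gmnn, which encodes geminin, an inhibitor of DNA replication licensing that also binds Hox proteins, was at 1.87 RPKmM.

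Beside other families of developmental transcription factors, the Hox entries had a similar share of active entries and more activity in the upper range. Fox genes were active in 25 of 46 entries (54.3%), Sox, Tbx and Gata genes in 29 of 47 (61.7%), and homeobox genes outside the clusters in 80 of 160 (50%). These shares, like the 57.8% of the Hox entries, were below the 70.2% of all entries. The medians of active entries were 0.68 RPKmM for Fox genes, 0.19 RPKmM for Sox, Tbx and Gata genes and 0.685 RPKmM for other homeobox genes, against 1.1 RPKmM for the Hox entries. These medians count entries and not genes. The several entries of Sox6, all active but listed at 0, each count in the Sox, Tbx and Gata median. The highest Fox gene was Foxm1, a regulator of mitotic genes, at 3.4 RPKmM, and the highest of the Sox, Tbx and Gata genes was Sox4 at 10.16 RPKmM. Hoxc8 exceeded both, and Hoxa9 exceeded Foxm1 but not Sox4. Activity of 1 RPKmM or higher was found in 28.9% of the Hox entries, 23.8% of other homeobox entries, 19.6% of Fox entries and 10.6% of Sox, Tbx and Gata entries. Over all entries the share was 32.3%, above that of each of these families, Hox included. These shares are descriptions of pooled libraries and carry no test.

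**Figure D5:**
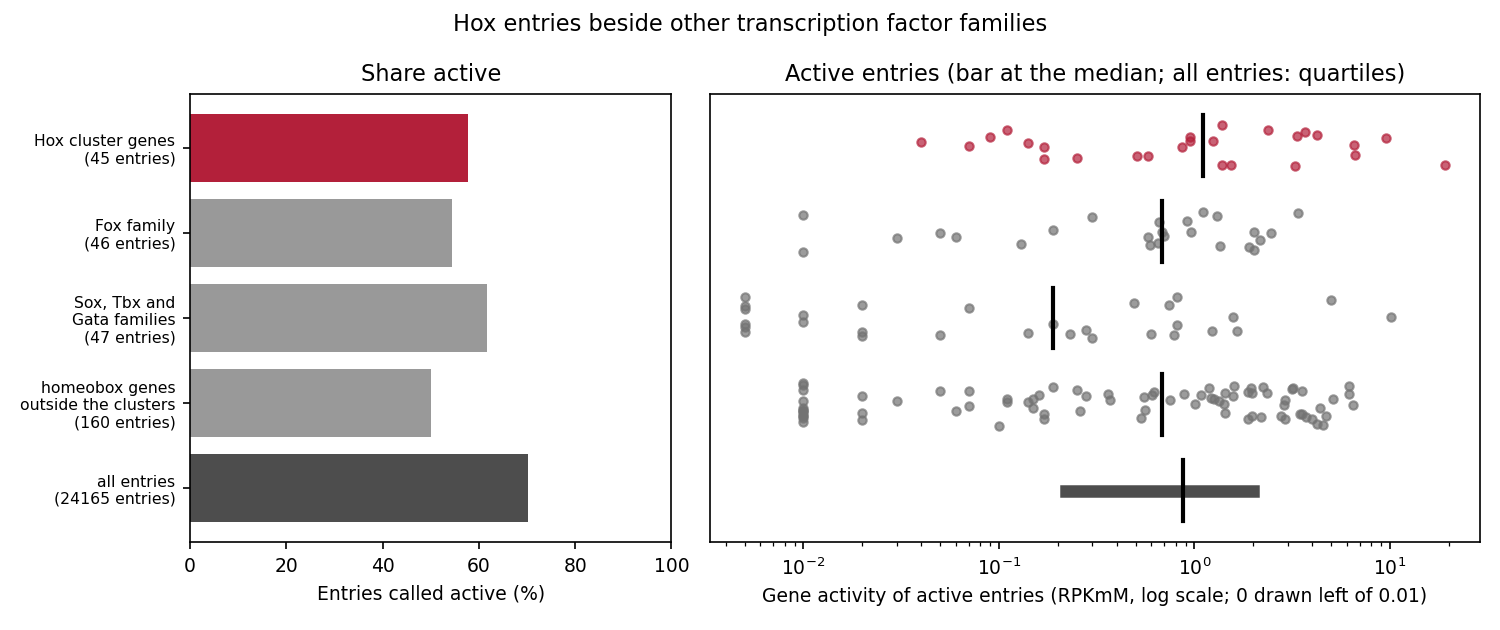
Left, the percentage of entries called active; right, the activity in RPKmM of active entries on a log scale, as 1 point per entry with a vertical bar at the median, for the Hox entries, other transcription factor families and all entries (quartiles as a grey bar). Points are spread vertically for legibility only, and activities listed as 0 are drawn left of 0.01. The Hox median is 1.1 and Hoxc8 at 19.07 is the rightmost point.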

How the data were processed

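GRO-seq libraries of untreated C2C12 myoblasts (2 replicates) were mapped by the authors to mm9 with Bowtie2, after base calling with CASAVA 1.8 per the submitters' processing notes. Failed reads were trimmed by 5 bases and mapped again, uniquely mapped reads were kept, reads at rRNA and tRNA repeats were discarded, and the libraries were pooled. The authors deposited gene activity in RPKmM, an RPKM over mappable bases, rounded to 2 decimals, or the word Inactive in 7208 of 24165 entries. Pooling hides variation between libraries, and unmappable or repeat sequence in a gene body goes uncounted. Depth per library was not used here.

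Members were found by symbol. Counts, medians, ratios and ranks of Hox genes and other families were computed over entries, and those of partner, regulator and marker lists and of paralogue groups over gene symbols at their highest entry, with Python 3.11.15, pandas 2.3.3, numpy 2.4.6 and matplotlib 3.10.9, without filter or pseudocount, and inactive entries had no value. The calculation was tested on simulated data. Gene spans and flanking genes came from GENCODE vM1 on mm9, matched by symbol, so a span may differ from that of the RefSeq entry. The place of microRNAs and of Hotair relative to Hox genes came from RefSeq gene order. Protein sequences were not used here.

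All members may be named, although some genes counted in the totals are not reported by name here; neighbours, noncoding transcripts, TALE partners, Polycomb, trithorax and upstream regulators came from lists, and Foxm1 and Sox4 were named as the highest of their families after their values were seen. The members and lists were chosen with earlier results of these data known. Alternatives were a single entry per symbol, NM entries only, activities of at least 0.01 or 0.1, geometric means with pseudocounts of 0.01 and 0.001, inactive entries counted at 0, and leaving out entries whose span, by GENCODE or also by RefSeq, holds the start of another Hox gene.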

Additional observations from a re-analysis of the deposited data

How the results depend on the processing

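No paired analysis was possible because the 2 replicate libraries were pooled and belong to a single group. Leaving out a replicate was not run for the same reason. Of 115 alternative values for the counts, medians and ranks of Hox entries, 103 differed from the main value by at most 1.5-fold and 12 by more. Taking a single entry per gene, NM entries only, activities of at least 0.01 or 0.1, or leaving out the 3 entries (Hoxa3, Hoxb8 and Hoxd3) whose mm9 span holds another Hox start moved no value that far. Leaving out also Hoxb3 and Hoxd11, whose RefSeq span holds another Hox start (7 entries in all; chosen after seeing the data), lowered the number of active entries from 5 to 3 in HoxB and from 8 to 5 in the anterior region, by construction, and moved no median that far. With inactive entries counted at 0, the median changed from 1.1 to 0.11 RPKmM over all Hox entries, from 0.14 to 0 for HoxB, from 0.17 to 0.08 for anterior, from 1.315 to 0.51 for central and from 1.965 to 0.31 for posterior entries, by construction, since these groups hold inactive entries. The posterior median was then below the central one. Geometric means of active entries with a pseudocount of 0.001 or 0.01 were 0.213 or 0.216 for HoxB and 0.260 or 0.265 for anterior entries, and for HoxA 0.625 with a pseudocount of 0.001. HoxC stayed highest and HoxB lowest of the 3 active clusters under each of these. Rounding leaves values such as 0.02 or 0.04 with 1 significant digit.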

Other observations

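Polycomb genes, whose products keep Hox genes silent, were active in 27 of 27 cases with a median of 1.48 RPKmM over genes, each at its highest entry, and of 1.97 RPKmM over their 38 entries. Counted per gene, 68.7% of all symbols were active, with a median of 0.87 RPKmM. Among the subunits of the complex that methylates histone H3, Suz12 was at 4.55, Ezh2, the methyltransferase, at 3.37 and Eed at 2.72 RPKmM. Of the Cbx subunits, which read this mark, Cbx6 was at 7.67 RPKmM, the highest of the list, and Cbx7 at 0.19 RPKmM, the lowest. Trithorax genes and histone demethylases that oppose Polycomb were active in 10 of 10 cases. Their median was 2.03 RPKmM over genes and 1.5 RPKmM over 17 entries. Among them, Kdm6b, a demethylase of the Polycomb mark, was at 4.03 RPKmM. Wdr5 was at 3.11 and Kmt2a, the methyltransferase named after trithorax, at 2.22 RPKmM.

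Of 12 genes that act upstream of Hox genes in the embryo, 8 were active, near the 68.7% of all symbols, with a median of 0.57 RPKmM over genes at their highest entry. Over the 14 active entries of these genes the median was 1.04 RPKmM, so it lay below or above the 0.87 RPKmM of all active entries depending on the unit counted. Cdx2 and Cdx4, activators of posterior Hox genes, were inactive, as was Aldh1a2, which makes retinoic acid, and Cdx1 was listed at 0.01 RPKmM. Among the retinoic acid receptors, the higher entry of Rarg was at 6.74 RPKmM, Rara at up to 1.06 RPKmM and Rarb at up to 0.03 RPKmM. Gdf11, a growth factor that sets the onset of posterior Hox genes, was at 3.36 RPKmM, and Egr2, a hindbrain regulator that also responds to serum, at 1.29 RPKmM.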
